A study of Mus musculus with 3 samples.

Results

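Proliferating Kupffer cells (KCs) were 98 liver cells that carried transcripts of both the KC program and of mitosis. KCs are the resident macrophages of the liver. They lie in the sinusoids, take up microbes and worn erythrocytes, and keep up their number largely by dividing in place, with blood monocytes as a second source when resident cells are lost. A cell was called a KC here when it held at least 10 unique molecular identifiers (UMIs, each 1 counted transcript molecule) of Clec4f and Vsig4 together. The members were thus chosen by their own measured UMIs of 7 genes. Clec4f is a lectin found on mouse KCs, and Vsig4 is a complement receptor of tissue macrophages. A KC was called proliferating when it also held at least 5 UMIs in sum of Mki67, Top2a, Cdk1, Ube2c and Birc5. Of 3991 KCs, 98 met this rule, 39 of 3002 in the first library and 59 of 989 in the second. The comparison KCs of each library had 0 or 1 UMI of the 5 genes, and there were 2878 and 830 of them. The remaining 185 KCs held 2 to 4 UMIs and belonged to neither set. All cells had at least 200 genes detected and at most 25% of their UMIs from mitochondrial genes, which left 43850 of the 52335 deposited cells.

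The study compared liver macrophages of mice on an ordinary and on a fat- and cholesterol-rich diet, with attention to the chitinase-like gene Chil1. Single liver cells were captured on the BD Rhapsody system, and the whole transcriptome of each was counted in UMIs. Cells came by collagenase perfusion and density separation of non-parenchymal cells according to the study's methods, whereas the sample labels speak of parenchymal cells. The first library, called the WT library below, held cells of wild-type C57BL/6J mice. Its diet was not settled by the sources: the study describes a normal chow diet, and the table's header names the library APAP0h. The sample label MCD was matched to this library by elimination, as the label left once those of the pool were matched. The second library, called the HFHC pool, held cells of wild-type and Chil1-/- mice together, all on a high-fat, high-cholesterol diet for 16 weeks. Its cells were not separated by genotype here. Each group was therefore 1 library with no replicate, and how many mice each held was not given in the sources used here. Diet, genotype, library, depth and annotation version cannot be told apart between the libraries, and no p-value or standard error was computed. The intervals given are exact 95% intervals that cover counting error only.

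The deposited WT library held 53720863 UMIs in 30734 cells and the pool 71981673 UMIs in 21601 cells. The comparison KCs had a median of 5132.5 UMIs per cell in the WT library and 18176.5 in the pool. Proliferating KCs were deeper still, with a median of 9552 UMIs (range 1764 to 25221) and 25024 UMIs (2874 to 49361). A fixed minimum of UMIs is met more easily by a deep cell, so levels below are given as counts per 1000000 UMIs summed over a set of cells (CPM) or per 10000 UMIs of a cell. Proliferating KCs had a median of 3276 genes detected in the WT library and 5219 in the pool. The upper limit of 4000 genes used in the study was passed by 10 of 39 and 51 of 59 of them, against 29 of 2878 and 481 of 830 comparison KCs, so most of the pool's members belong to its large KCs. Mitochondrial genes took a median of 6.12% and 6.88% of their UMIs, near the 7.06% and 6.78% of comparison KCs. Of cell numbers, 756 occurred in both libraries where 727.4 would by chance, and none was that of a proliferating KC in both.

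The 5 genes that chose the cells act in the second part of the cell cycle. A dividing cell copies its DNA in S phase with replication factors and nucleotide-making enzymes, mostly under E2F transcription factors. It then makes the proteins of G2 and M phase, which condense, align and separate the chromosomes, mostly under the DREAM, B-MYB and FOXM1 complexes at promoter elements called CHR and CCAAT boxes. Mki67 coats mitotic chromosomes, Top2a untangles DNA, and Cdk1 is the kinase that starts mitosis. Ube2c feeds the anaphase-promoting complex, and Birc5 (survivin) is a subunit of the chromosomal passenger complex. The 250 bases before the annotated start of 4 of them are printed because they hold both elements. The sequences are RefSeq's for build GRCm38.p6, 5′ to 3′ on the gene's strand. Capitals mark, on either strand, every match to the CHR element, spelled TTTGAA, to the box named CCAAT and to an E2F site, spelled as any of TTTCCCGC and TTTGGCGC and TTTCGCGC and TTTGCCGC. In Ube2c a pair of CCAAT matches on opposite strands share bases.
Mki67, chr7:135716380-135716629, minus strand: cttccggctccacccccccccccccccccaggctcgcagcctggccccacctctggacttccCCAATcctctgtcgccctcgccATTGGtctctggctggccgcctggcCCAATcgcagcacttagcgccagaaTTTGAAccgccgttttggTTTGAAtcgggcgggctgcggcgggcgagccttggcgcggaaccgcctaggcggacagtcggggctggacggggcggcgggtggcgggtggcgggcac
Top2a, chr11:99024190-99024439, minus strand: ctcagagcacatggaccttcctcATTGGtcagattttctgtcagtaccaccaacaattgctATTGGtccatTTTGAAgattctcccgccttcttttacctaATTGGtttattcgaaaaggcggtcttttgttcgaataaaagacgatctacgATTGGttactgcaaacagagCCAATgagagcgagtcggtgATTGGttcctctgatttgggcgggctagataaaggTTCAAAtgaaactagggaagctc
Cdk1, chr10:69352913-69353162, minus strand: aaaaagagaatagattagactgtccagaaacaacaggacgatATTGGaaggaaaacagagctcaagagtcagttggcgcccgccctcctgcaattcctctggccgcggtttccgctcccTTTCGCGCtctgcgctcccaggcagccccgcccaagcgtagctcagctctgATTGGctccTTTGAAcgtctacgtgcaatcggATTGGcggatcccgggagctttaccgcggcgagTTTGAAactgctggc
Ube2c, chr2:164769679-164769928, plus strand: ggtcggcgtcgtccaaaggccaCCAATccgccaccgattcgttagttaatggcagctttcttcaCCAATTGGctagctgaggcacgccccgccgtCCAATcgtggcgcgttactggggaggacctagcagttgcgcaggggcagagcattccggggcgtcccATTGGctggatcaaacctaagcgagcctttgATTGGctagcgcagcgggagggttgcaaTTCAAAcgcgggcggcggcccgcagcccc

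The first base of a CHR match lay 116 and 98 bases before the start of Mki67, 179 and 23 before that of Top2a, 71 and 15 before that of Cdk1, and 29 before that of Ube2c. The only E2F match lay 131 bases before the start of Cdk1. None of the letters searched occurred in the same window of Birc5 (chr11:117848987-117849236, plus strand). Both a CHR and a CCAAT match stood in 4 of these 5 promoters and in 5.55% of all 32851 promoters in the table. A promoter matched for 43 of 50 G2 and M phase genes described below, and 29.2% of their 48 promoters held both. For 31 of 43 S phase genes, with 34 promoters, the share was 11.8%. E2F matches had the opposite order, with 26.5% of S phase promoters, 4.17% of G2 and M phase promoters and 1.86% of all. Over the genes measured well enough in both libraries, 4537 of 5682 matched, and 4.08% of their promoters held a CHR and a CCAAT match and 3.45% an E2F match. A match is a string of letters and was not tested as a binding site.

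Members ranged widely in the sum of the 5 genes, from 5 to 101 UMIs (median 12) in the WT library and from 5 to 217 (median 23) in the pool. These values chose the cells and are given as a description. In the WT library the median cell held 5 UMIs of Mki67, 6 of Top2a, 1 of Cdk1, 2 of Ube2c and 2 of Birc5. In the pool it held 8, 3, 2, 3 and 5. A UMI of each of the 5 genes was present in 15 of 39 and 29 of 59 cells, and 2 and 3 cells reached the minimum with 1 gene alone. Just inside the limit, 5 WT cells and 10 pool cells had exactly 5 UMIs, with a median of 9552 and 25491 UMIs in all. Just outside it, 6 and 10 cells had exactly 4, with a median of 5077.5 and 21734 UMIs in all. In summed UMIs, Mki67 stood at 618 CPM in proliferating and 5.45 CPM in comparison KCs of the WT library, and at 677 and 4.53 CPM in the pool. Birc5 stood at 325 and 0.490 CPM, and at 344 and 0.473 CPM.

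Whether a cell with few of these UMIs also carried the rest of the program was read from 2 lists of other genes, an S phase list of 43 and a G2 and M phase list of 50 genes, neither of which holds the 5. In the WT library, G2 and M phase genes took a median of 7.72 UMIs per 10000 in comparison KCs, 9.20 in cells with 2 to 4 cycle UMIs, 27.6 in the 18 cells with 5 to 9, and 92.0 in the 21 cells with 10 or more. In the pool the same steps were 7.02, 7.54, 8.50 in 20 cells and 101 in 39 cells. The pool's cells with 5 to 9 UMIs thus had G2 and M phase levels near those of its comparison KCs, with quartiles of 6.40 and 10.5, while those of the WT library lay between. S phase genes had medians of 4.46, 6.30, 10.4 and 46.3 per 10000 in the WT library and 4.73, 5.40, 5.39 and 20 in the pool, where the classes of 2 to 4 and 5 to 9 UMIs lay at like levels. Among cells with 5 to 9 cycle UMIs, 7 of 18 and 14 of 20 drew them from 1 or 2 genes. A cell of the pool with 5 to 9 of these UMIs was therefore, in most cases, not set apart by the remaining cell cycle genes, and the share of KCs and the counts of genes past 2-fold are also given with a minimum of 10.

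**Figure D1:**
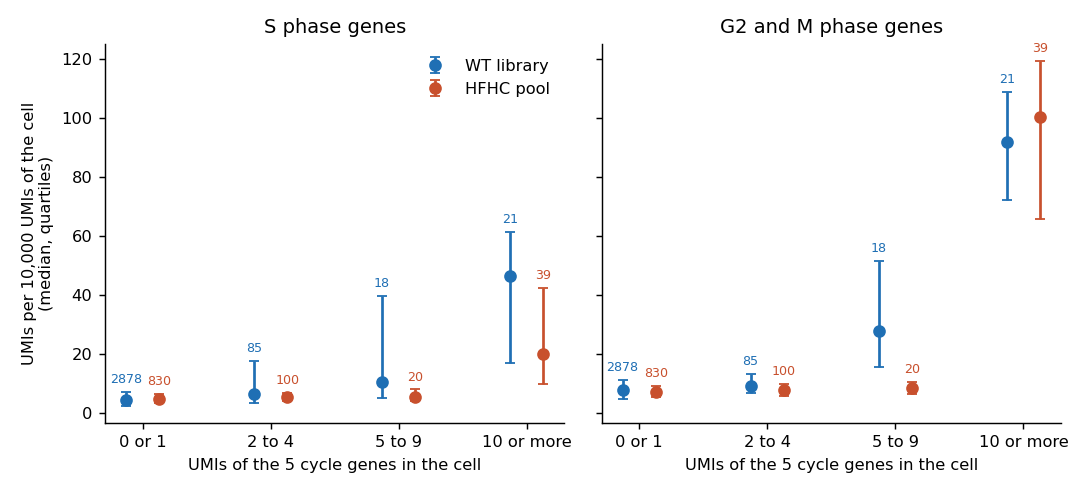
UMIs of S phase genes and of G2 and M phase genes per 10000 UMIs of a cell, by the cell's sum of the 5 cycle genes, in the WT library and the HFHC pool. Points are medians over cells, bars run from the first to the third quartile, and the number of cells is printed for each class. In the pool, cells with 5 to 9 cycle UMIs (G2 and M median 8.50) sit near comparison KCs (7.02), and cells with 10 or more (101) stand apart.

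To place the members within the cycle, each cell was thinned at random to 2000 UMIs, which left out 1 WT member. Of the remaining 38 WT cells, 7 held more S than G2 and M phase UMIs and 27 held fewer. In the pool the counts were 8 and 48 of 59. The median cell held 12 G2 and M phase UMIs in either library, and 6 S phase UMIs in the WT library against 2 in the pool. At least 5 S phase UMIs remained in 21 of 38 WT members (55.3%, 38.3 to 71.4) and 19 of 59 pool members (32.2%, 20.6 to 45.6), against 1.58% and 1.11% of comparison KCs. At least 10 remained in 14 of 38 (36.8%, 21.8 to 54.0) and 4 of 59 (6.78%, 1.88 to 16.5). Most members of both libraries thus held more G2 and M than S phase UMIs. Comparison KCs leaned the same way at lower levels, with fewer S phase UMIs in 1327 and more in 617 of 2589 thinned WT cells, and in 391 and 202 of 808 in the pool. The G2 and M list is also the longer, and the choice of 5 late genes favours it. Among the WT cells with S phase UMIs were cells with T cell transcripts, which are described with the other cell types further on.

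**Figure D2:**
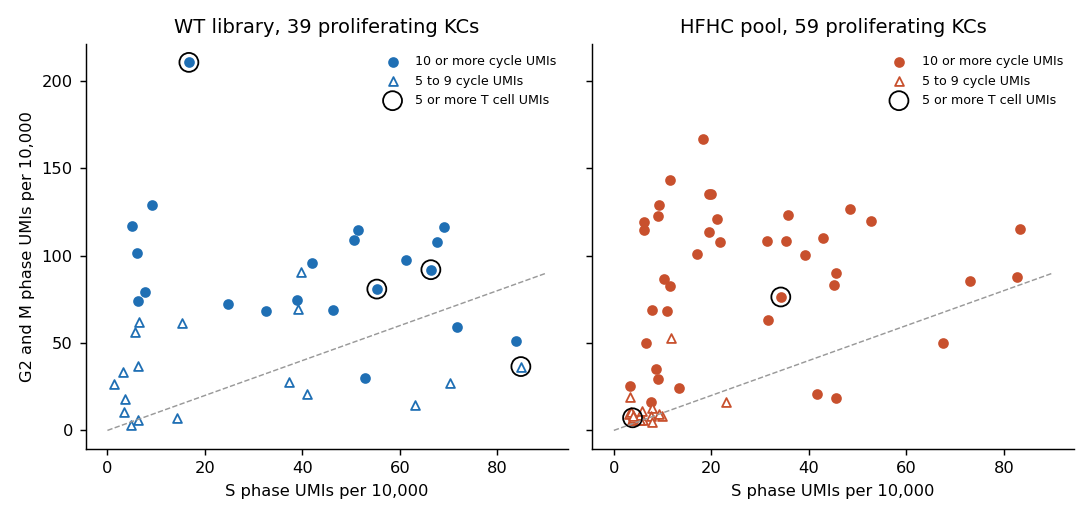
UMIs of S phase genes (horizontal axis) and of G2 and M phase genes (vertical axis) per 10000 UMIs in each of the 39 WT and 59 pool proliferating KCs. Filled circles are cells with at least 10 cycle UMIs, open triangles cells with 5 to 9, black rings cells with at least 5 T cell UMIs, and the dashed line marks equal values. Most circles lie above the line, and most open triangles of the pool lie in the corner of low values.

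All genes were then compared between proliferating and comparison KCs within each library. Their summed UMIs were 412422 and 16320420 in the WT library and 1532193 and 14799692 in the pool. A difference is a log2 ratio of CPM with 1 UMI added to each side, and a gene entered when the mean of its 2 levels was at least 20 CPM. A gene near 0 in comparison KCs entered only through its level in proliferating KCs, so a gene that entered this way had to be higher. A gene was counted as past 2-fold at a log2 ratio of at least 1 in size. In the WT library 586 of 6278 genes were past 2-fold higher (9.33%) and 86 lower (1.37%). In the pool 274 of 6100 were higher (4.49%) and 34 lower (0.557%). Of 5682 genes that entered in both, 223 were past 2-fold higher in both (3.92%) and 4 lower in both (0.0704%). With a minimum of 10 cycle UMIs, 323 genes were past 2-fold higher in both, 220 of the 223 among them, and 18 were lower in both, 1 of the 4 among them. The median of all genes was 0.15 in the WT library and 0.05 in the pool, and small differences are read against these. The 223 genes hold the cell cycle program that the rule asked for, and the lists below were described by how many of their members were among them.

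**Figure D3:**
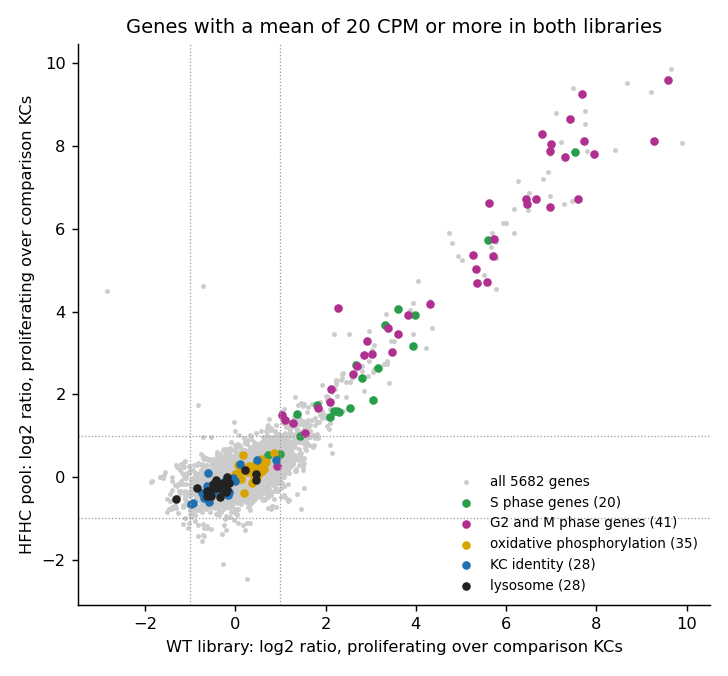
Log2 ratio of proliferating over comparison KCs in the WT library (horizontal axis) and in the HFHC pool (vertical axis) for the 5682 genes that entered in both. Coloured points are the genes of the lists named in the key, grey points all other genes, and dotted lines mark 2-fold. Cell cycle genes fill the upper right and KC identity genes lie just below 0 on both axes.

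The genes with the largest differences in both libraries were near 0 in comparison KCs, and so entered only through their level in proliferating KCs. Pclaf, which binds the replication clamp PCNA, was counted 224 times in 39 proliferating KCs against 10 times in 2878 comparison KCs of the WT library, and 574 against 5 times in the pool. These are 543 against 0.613 CPM and 375 against 0.338 CPM. Nusap1, which bundles spindle microtubules, had 2 UMIs in the comparison KCs of either library, and its ratio was 1128 (interval 298 to 9538) in the WT library and 1159 (317 to 9626) in the pool. Kif4, a chromosome-bound kinesin, had no UMI in WT comparison KCs. Against a floor of 3 UMIs it was at least 303-fold higher. Esco2, which acetylates cohesin in S phase, had none in the pool's comparison KCs and was at least 222-fold higher there. Hmmr, a spindle protein, was 910-fold (238 to 7740) and 324-fold (146 to 892) higher. The other genes of the 15 highest were the choosing genes Birc5, Ube2c and Top2a, and Iqgap3, Bub1, Ccna2, Knl1, Ccnb1, Cdc20 and Rrm2, each at a log2 ratio of 7.53 or more in both libraries. Iqgap3, Bub1, Knl1 and Cdc20 had between 1 and 4 UMIs in the comparison KCs of each library, so their ratios rest on few counts. None of the 13 with a promoter in the table held an E2F match, 69.2% held a CCAAT match and 30.8% a CHR match, against 1.86%, 33.8% and 16% of all promoters. Over promoters of the genes that entered in both libraries these shares were 3.45%, 34.5% and 10.9%. At so low an E2F share, none among 13 is no contrast. The promoters of Top2a and Ube2c, which chose the cells, are among the 4 with a CHR match.

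Over all 43 S phase genes together, proliferating KCs held 3608 CPM in the WT library against 538 CPM in comparison KCs, and 2317 against 502 CPM in the pool. Of the genes that entered, 28 of 30 were past 2-fold higher in the WT library and 17 of 20 in the pool, with medians of 2.94 and 1.80. The median was 0.15 and 0.05 over all genes. Pcna, the sliding clamp of DNA polymerase, was 2.30 and 1.58 higher on the log2 scale. Mcm5, a subunit of the replicative helicase, was 3.99 and 3.92 higher, and Atad2, a chromatin ATPase, 3.16 and 2.64. E2f8, a repressor of the E2F family, was 7.70 higher (interval 6.29 to 10.4) in the WT library from 20 against 3 UMIs, and did not enter in the pool. It entered only through its level in proliferating KCs and so had to be higher. How many genes of this list entered that way was not counted. The smallest differences in both libraries were those of Casp8ap2, with 0.73 and 0.53.

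The enzymes that make DNA building blocks were higher as well. The list of 22 nucleotide synthesis genes summed to 1751 against 475 CPM in the WT library and 1244 against 454 CPM in the pool. Past 2-fold higher were 13 of 17 and 7 of 12 genes that entered, with medians of 1.71 and 1.05, and 7 of 12 in both. Rrm2 and Rrm1, the subunits of ribonucleotide reductase, were 7.53 and 3.61 higher in the WT library and 7.87 and 4.06 in the pool. Tk1, thymidine kinase, was 3.30 and 2.72 higher, and Tyms, thymidylate synthase, 3.93 and 3.16. Of 22 DNA repair genes only 9 and 6 entered, of which 8 and 4 were past 2-fold higher. Lig1, the ligase that joins Okazaki fragments, was 3.06 and 2.52 higher. Brca1 was 7.18 higher in the WT library, from 21 against 5 UMIs, and did not enter in the pool. It too entered only through proliferating KCs and so had to be higher, and how many others of these lists did was not counted.

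G2 and M phase genes are those of the phase in which the 5 choosing genes act, so their larger differences were favoured by the choice. The 50 genes summed to 7121 against 840 CPM in the WT library and 6616 against 727 CPM in the pool. Past 2-fold higher were 41 of 42 genes that entered and 43 of 44, with medians of 5.35 and 4.85, and 40 of 41 in both. The exception in both was Ctcf, a chromatin organiser active in all phases, with 0.92 and 0.26. Hmgb2, a chromatin protein of dividing cells, stood at 1181 against 97.7 CPM in the WT library and at 745 against 68.1 CPM in the pool. Ccnb1 and Ccnb2, the B cyclins that switch on Cdk1, were 7.72 and 6.97 higher in the WT library and 8.12 and 6.52 in the pool. Cks2, a Cdk1 subunit, was 2.93 and 3.28 higher. Aurkb, the kinase of the complex that holds Birc5, was 5.34 and 5.04 higher, and its partner Cdca8 5.27 and 5.38.

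Parts of the division machinery were higher in every gene that entered in both libraries. Those with few UMIs in comparison KCs, such as Kif4 and Nusap1, entered only through proliferating KCs and so had to be higher. How many genes of each list entered this way was not counted. Of all genes, 3.92% were past 2-fold higher in both. All 21 spindle and cytokinesis genes that entered in both libraries were past 2-fold higher in both, and the 24 genes of the list summed to 5601 against 698 CPM and 5267 against 578 CPM. Stmn1, which destabilises microtubules, stood at 827 against 9.01 CPM in the WT library and at 781 against 6.69 CPM in the pool. The tubulins Tuba1b and Tubb5, which are also part of every resting cell, were 2.24 and 2.58 higher in the WT library and 2.24 and 2.4 in the pool. Kif11, a motor that pushes spindle poles apart, was 7.0 and 8.06 higher, and Prc1, a crosslinker of the midzone, 6.93 and 7.37. Kif23, a motor of cytokinesis, was 2.28 higher in the WT library and 4.08 in the pool. Of 30 kinetochore genes only 19 entered in both, and 16 of these 19 were past 2-fold higher in both. The medians of the kinetochore genes that entered were 4.81 and 5.54. Cenpa, the centromeric histone, was 3.39 and 3.61 higher, Cenpe, a kinetochore motor, 5.62 and 6.62, and Ndc80, which grips microtubules, 5.74 and 5.75. Pmf1, a kinetochore subunit, was 1.14 and 0.74 higher. Of chromatin genes, 19 of 21 were past 2-fold higher in both. Smc4, a condensin subunit, was 3.03 and 2.98 higher, H2afz, a histone variant, 2.15 and 2.05, Ezh2, a histone methyltransferase, 2.96 and 3.52, and Dnmt1, which copies DNA methylation, 2.03 and 1.85.

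The 27 cyclins, CDKs and E2F or DREAM regulators summed to 1852 against 824 CPM in the WT library and 1252 against 483 CPM in the pool, with 10 of 16 and 6 of 14 past 2-fold higher. Ccna2, the cyclin of S and G2 phase, was 7.80 and 7.89 higher. Cdk2 was 1.59 and 1.29 higher, and E2f1 1.46 and 0.57. Cdk4, the kinase of G1 phase, was 1.43 and 0.55 higher. Its partner Ccnd1, which rises on growth factor signals, stood at 221 against 280 CPM in the WT library and at 58.1 against 90.5 CPM in the pool, log2 ratios of -0.33 and -0.62. In thinned cells Ccnd1 had a UMI in 31.6% of WT members against 35.7% of comparison KCs, and in 8.47% against 16.6% in the pool.

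Among 21 genes that hold back the cycle, 15 entered in both libraries and 3 were past 2-fold higher in both, against 3.92% of all genes. These were Cdkn1a, Cdkn2c and Cdkn2d. Cdkn1a (p21), an inhibitor of CDKs, stood at 107 against 38.6 CPM in the WT library and at 165 against 50.6 CPM in the pool. Its log2 ratios were 1.5 (interval 0.99 to 1.91) and 1.71 (1.5 to 1.91). In cells thinned to 2000 UMIs, Cdkn1a had a UMI in 21.1% of WT members (9.55 to 37.3) and 16.9% of pool members (8.44 to 29.0), against 5.64% and 5.69% of comparison KCs. Cdkn2c (p18) and Cdkn2d (p19), which bind Cdk4 and Cdk6, were 4.05 and 2.51 higher in the WT library and 4.74 and 3.44 in the pool. Cdkn1b (p27) was 0.06 and 0.55 higher. Mxi1, which opposes Myc, was past 2-fold lower in the WT library at -1.06 and stood at 0.10 in the pool. The medians of the inhibitor list were 0.06 and 0.34, against 0.15 and 0.05 over all genes.

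**Figure D4:**
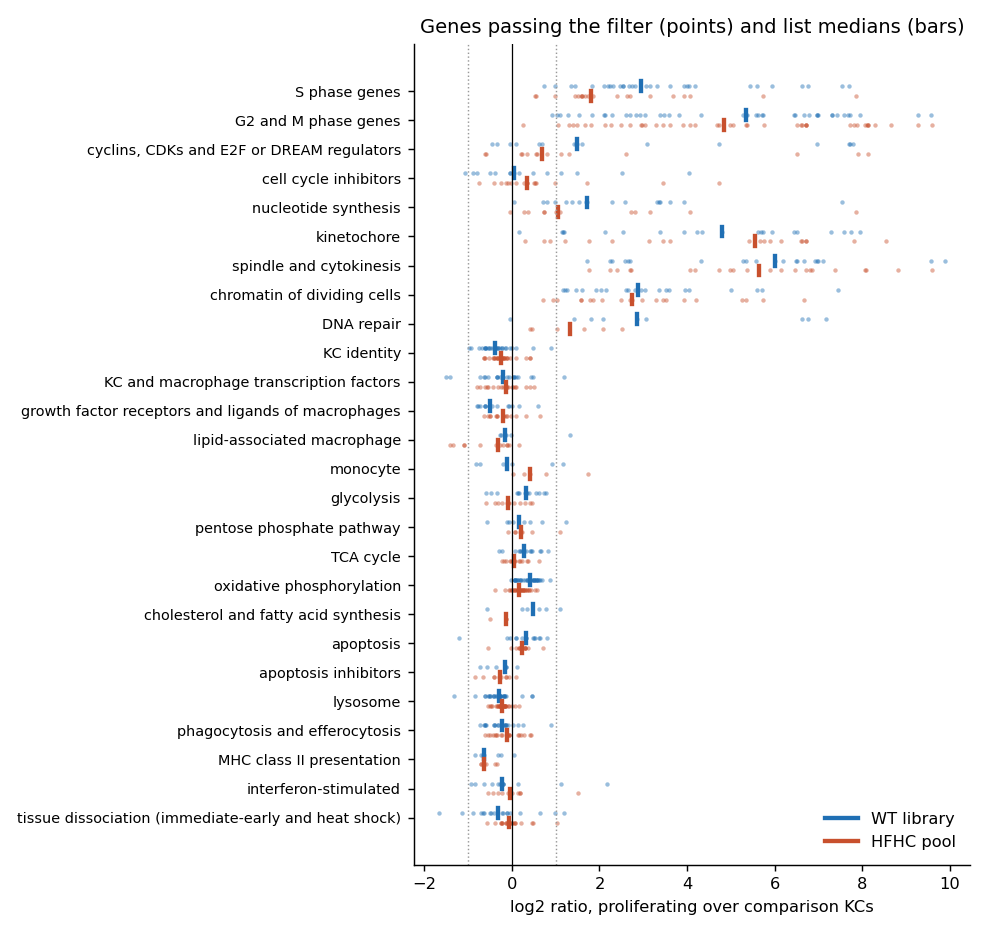
Log2 ratio of proliferating over comparison KCs for the genes of each list that entered (points) and their median (bars), in the WT library and the HFHC pool. The lists of replication and division have medians from 0.69 to 6.0 and all other lists from -0.64 to 0.48.

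Members carried the genes that define KCs. All 28 KC identity genes entered in both libraries, 23 were lower in both, and none was past 2-fold in either direction. Of all 5682 genes, 27.3% were lower in both libraries and 42.7% higher in both, and counts of direction here and below are read against these shares. Together they held 40398 CPM against 53967 CPM in the WT library and 38726 against 46935 CPM in the pool, with medians of -0.38 and -0.24. Clec4f and Vsig4, which also chose the cells, were -0.52 and -0.48 in the WT library and -0.28 and -0.33 in the pool. Per cell, they took a median of 66.4 UMIs per 10000 against 89.5 in comparison KCs of the WT library and 60.0 against 76.8 in the pool. These values are a description, since both genes chose the cells. Timd4, the phosphatidylserine receptor of long-resident KCs, stood at 490 against 757 CPM and at 775 against 911 CPM. It was at 0 in 2 of 39 and 5 of 59 members. In the pool these 5 cells held 150, 28, 45, 13 and 14 cycle UMIs, so none was among those with 5 to 9. In thinned cells Timd4 had a UMI in 65.8% of WT members (48.6 to 80.4) against 72.7% of comparison KCs, and in 66.1% of pool members (52.6 to 77.9) against 75%. B cells, which should lack it, had a share of 0.439% in the WT library and 0.377% in the pool at the same 2000 UMIs. In both libraries the interval of this share in members holds the share of comparison KCs. The ratio of summed Timd4 levels, members over comparison KCs, was 0.647 (0.560 to 0.743) in the WT library and 0.851 (0.801 to 0.903) in the pool. Neither of these intervals holds equal levels. Per cell, Timd4 took a median of 3.94 UMIs per 10000 against 6.79 in the WT library and 7.16 against 8.75 in the pool. The pool's 59 members include the 20 cells with 5 to 9 cycle UMIs, most of which the other cell cycle genes did not set apart. Whether the thinned Timd4 share differs without these 20 cells was not tested.

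The other KC genes ranged from Lyz2, the lowest, to Marco, the highest. Cd5l, a secreted scavenger protein, was -0.23 and -0.19, C1qb, a chain of complement C1q, -0.31 and -0.23, and Cd68, a lysosomal membrane protein, -0.04 in both. Adgre1, which encodes F4/80, was -0.69 and -0.51. Clec1b, a lectin that binds podoplanin, was -0.55 and -0.28, and in thinned cells it had a UMI in 28.9% of WT members (15.4 to 45.9) against 45.4%, and in 66.1% of pool members against 68.2%. Lyz2, lysozyme, was -0.98 and -0.65. Marco, a scavenger receptor for bacteria, stood at 967 against 521 CPM in the WT library, a log2 ratio of 0.90, and at 844 against 631 CPM in the pool, a log2 ratio of 0.42. Marco had a UMI in 26 of 39 and 41 of 59 members, and the cell with most held 28.6% and 13.5% of its UMIs. In thinned cells Marco had a UMI in 47.4% of WT members (31.0 to 64.2) against 31.9% of comparison KCs, which this interval holds, and in 47.5% of pool members (34.3 to 60.9) against 32.8%.

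Transcription factors of KCs and macrophages were spread around medians of -0.21 and -0.14. Maf, which restrains the self-renewal of macrophages, was -0.21 in the WT library and 0.01 in the pool. Myc, a driver of growth, was 0.13 and -0.12. Klf2 and Klf4, zinc finger factors of quiescent macrophages and endothelium, were lower, with -1.51 and -1.41 in the WT library and -0.54 and -0.73 in the pool. Klf2 stood at 162 against 468 CPM and at 446 against 650 CPM. Of growth factor receptors and ligands, 10 of 13 were lower in both libraries. Csf1r, the receptor for the main survival and growth factor of macrophages, was -0.62 and -0.34, yet a UMI of it remained in 97.4% and 100% of thinned members. Igf1 was -0.07 and 0.09, and Pim1, a kinase of growth factor signalling, 0.58 and 0.64.

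Most genes of antigen presentation and of the lysosome were lower in both libraries, by less than 2-fold. Of 7 MHC class II presentation genes that entered in both, 6 were lower in both, with medians of -0.63 and -0.64. Cd74, the invariant chain, stood at 3043 against 5482 CPM in the WT library and at 6282 against 10257 CPM in the pool. H2-Ab1 was -0.65 and -0.70. Of 28 lysosome genes, 25 were lower in both and none was past 2-fold in both, with medians of -0.29 and -0.22. The cathepsins Ctsb and Ctss were -0.53 and -0.62 in the WT library and -0.47 and -0.46 in the pool. Npc1, which exports cholesterol from lysosomes, was -1.32 and -0.54, and Psap, the precursor of the saposins, -0.20 and -0.37. Of 21 phagocytosis and efferocytosis genes, 14 were lower in both and 3 higher in both. Lipid-associated macrophage genes, a program of macrophages in fatty liver, had 4 of 12 past 2-fold lower in the pool, against 0.557% of all genes. Among these were Cd63 at -1.41 and Gpnmb, which stood at 60.0 against 130 CPM. Of Gpnmb's UMIs in pool members, 2 cells held 53.3%. In thinned cells it had a UMI in 8.47% of pool members (2.81 to 18.7) against 6.31% of comparison KCs. In the WT library 6 of this list's genes entered, and their median was -0.16. Among them Gdf15, a stress cytokine, was past 2-fold higher there at 1.32, from 14 UMIs in 4 cells.

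No gene of energy metabolism was past 2-fold in both libraries. Of 35 oxidative phosphorylation genes, 28 were higher in both libraries and none was lower in both, with medians of 0.41 and 0.17 against 0.15 and 0.05 over all genes. Cox5b, a subunit of cytochrome oxidase, was 0.87 and 0.58 higher. Of 16 TCA cycle genes, 10 were higher in both, with medians of 0.27 and 0.05, against 0.15 and 0.05 over all genes. Glycolysis genes had medians of 0.32 and -0.08. Gapdh was 0.61 and 0.19 higher, and Hk2, a hexokinase, was -0.60 and -0.59. The pentose phosphate pathway, which makes ribose for nucleotides, had medians of 0.15 and 0.20. Of its genes, Prps1 was past 2-fold higher in the WT library at 1.23, from 15 UMIs, and Prps2 in the pool at 1.11. None of 6 glucose transporters entered in both libraries, and Slc2a1 (Glut1), the usual one of macrophages, had 5 UMIs in WT members and 27 in pool members. Chil1 had 1 UMI in WT members and none in pool members, against 59 and 13 UMIs in comparison KCs, too few for a comparison.

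Death and interferon genes gave no common direction past 2-fold but for 1 gene. Apoptosis genes had medians of 0.32 and 0.24, with 9 of 12 higher in both libraries, and apoptosis inhibitors -0.17 and -0.27, with 5 of 7 lower in both, against 42.7% and 27.3% of all genes. None was past 2-fold in both. Mcl1, an inhibitor, was -0.73 and -0.14. Interferon-stimulated genes had medians of -0.24 and -0.05. Cxcl10, an interferon-induced chemokine, was 2.17 and 1.51 higher, but 2 cells held 77.2% of its UMIs in WT members and 73.4% in pool members, and in the pool it was lower under 3 other settings. Of 12 monocyte genes, 6 entered in the WT library, 3 of them higher, and 5 in the pool, all higher. Their medians were -0.10 and 0.41, and 1 of the 4 that entered in both was higher in both. At least 5 monocyte UMIs were found in 20.5% of WT members against 14.9% of comparison KCs, and in 47.5% against 24.5% in the pool. In thinned cells they remained in 2.63% against 2.90% in the WT library, and in no pool member against 1.24%. Ly6c2, a marker of classical monocytes, was -0.83 in the WT library and 1.73 in the pool, where it was counted in 6 cells and 2 of them held 77.4% of its UMIs. Ccr2, their homing receptor, had 20 UMIs in WT members, 13 of them in 1 cell. Genes of the stress of tissue dissociation had medians of -0.31 and -0.07.

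The genes past 2-fold lower in both libraries included Serpina1b, Serpina1c and F830016B08Rik. The antitrypsin genes Serpina1b and Serpina1c were -1.06 and -1.03 in the WT library and -1.23 and -1.11 in the pool. Both are hepatocyte genes, counted 15 and 39 times in WT members. The copies of Serpina1 are nearly identical, so that reads may be split among them. The hepatocyte marker list stood at 934 CPM in WT members against 1377 CPM in comparison KCs, and at 609 against 875 CPM in the pool. All 7 of its genes had a UMI in members of both libraries. The next lowest included Flot1, C4b, Plekhm3, Ecm1, Arg1, Ms4a7, Lilr4b, Fbxo32, Pink1 and Gsta3, with C4b, a complement gene, at -0.97 in both.

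Transcripts of other cell types stood beside the KC program in some members. At least 5 UMIs of the hepatocyte list were found in 30 of 39 WT members (76.9%) against 63.2% of comparison KCs, and in 50 of 59 pool members (84.7%) against 84.3%. Thinned to 2000 UMIs, they remained in 3 WT members (7.89%) against 17.4%, and in 1 pool member (1.69%) against 7.80%. With hepatocytes left out, at least 5 UMIs of the T, B, NK, dendritic, plasma or endothelial cell or the neutrophil list were found in 11 of 39 WT members (28.2%), against 20.3% of comparison KCs, and in 33 of 59 pool members (55.9%) against 44.7%. The endothelial list accounted for most of these, with 8 WT and 29 pool members at 5 UMIs or more. These minimums are met more easily by the deeper members. Thinned to 2000 UMIs, 5 endothelial UMIs remained in 2 WT members (5.26%) against 3.32% of comparison KCs, and in 2 pool members (3.39%) against 3.84%. It held 553 CPM in WT members against 617 CPM in comparison KCs, and 479 against 442 CPM in the pool. The members with most endothelial UMIs held 201, 188 and 71 in the pool and 75 and 46 in the WT library. The T cell list held 538 CPM in WT members against 90.6 CPM in comparison KCs, and 35.9 against 48.7 CPM in the pool. It reached 5 UMIs in 4 WT members, with 115, 82, 7 and 7 UMIs, and in 2 pool members, with 23 and 17. The WT cell with 115 T cell UMIs held 5 UMIs each of Clec4f and Vsig4, 1 of Csf1r and 5 of the C1q genes among 13764 UMIs, with 68 cycle UMIs. It met the rule, but its 3.63 UMIs of C1q genes per 10000 were the fewest of all members, against a WT median of 134. Its 7.27 UMIs of Clec4f and Vsig4 per 10000 were the fewest of the WT members. A pool cell with 30384 UMIs had 18 UMIs of Clec4f and none of Vsig4 or Timd4, with 72 of Csf1r and 115 of C1qb. Another pool cell held 373 plasma cell UMIs, and 95.9% of the Igkc and 94.8% of the Ighm UMIs of pool members. Igkc was 4.49 higher in the pool and -2.84 in the WT library. Neutrophil markers stood at 72.7 CPM in WT members against 536 CPM in comparison KCs, of which 5.35% held 5 UMIs or more and the median cell none, and at 30.0 against 43.8 CPM in the pool. Scrublet, a doublet caller, marked 2 WT members, those with 75 and 46 endothelial UMIs, and no pool member, and 14.1% and 1.69% of comparison KCs. Without the cells with 5 T cell UMIs, 219 genes were past 2-fold higher in both libraries, 209 of them among the 223. Without cells with 5 UMIs of any of those lists, hepatocytes again left out, the counts were 255 and 197. The part of other cells' RNA in the remaining differences was not tested.

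The share of KCs that were proliferating was 1.30% (39 of 3002, interval 0.925 to 1.77) in the WT library and 5.97% (59 of 989, 4.57 to 7.63) in the pool. The intervals do not overlap, but the pool's KCs were also deeper, and each library was measured once. Under the study's limit of 4000 genes the shares were 0.981% and 2.14%, the latter from 8 cells. With a minimum of 10 cycle UMIs the shares were 0.700% (21 cells) and 3.94% (39 cells). When every KC was thinned to 2000 UMIs and 2 cycle UMIs were asked for, they were 1.51% (1.09 to 2.05) of 2708 cells and 4.46% (3.24 to 5.96) of 965 cells, which leaves out 294 WT and 24 pool KCs. When thinned to 5000 UMIs with 3 cycle UMIs asked for, they were 2.33% (1.65 to 3.20) of 1588 cells and 3.96% (2.79 to 5.44) of 909 cells, and these intervals overlap. This step kept 1588 of 3002 WT KCs and 909 of 989 pool KCs. In the WT library it kept 34 of 39 members but 1490 of 2878 comparison KCs, which raises the WT share. In the pool it kept 54 of 59 and 760 of 830. The overlap is therefore not read as the difference between the libraries at equal depth. Neutrophils, which do not divide once mature, reached 5 cycle UMIs in 0.220% and 0.332% of cells, at medians of 1086.5 and 2211 UMIs. B cells did so in 0.817% and 4.42%, at medians of 1448 and 2801 UMIs. Thinned to 2000 UMIs with 2 cycle UMIs asked for, neutrophils had 2.20% (6 of 273 cells, 0.811 to 4.72) in the WT library and 1.03% (2 of 195, 0.124 to 3.66) in the pool. B cells had 4.39% (10 of 228, 2.12 to 7.92) and 4.15% (33 of 795, 2.87 to 5.78), a difference between the libraries within these intervals. Thinning kept only 273 of 2722 WT neutrophils and 228 of 1224 WT B cells, the deepest of each, against 2708 of 3002 WT KCs, so these shares are no background for those of KCs. Of all kept cells with at least 5 cycle UMIs, KCs made up 39 of 257 (15.2%) in the WT library and 59 of 315 (18.7%) in the pool.

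**Figure D5:**
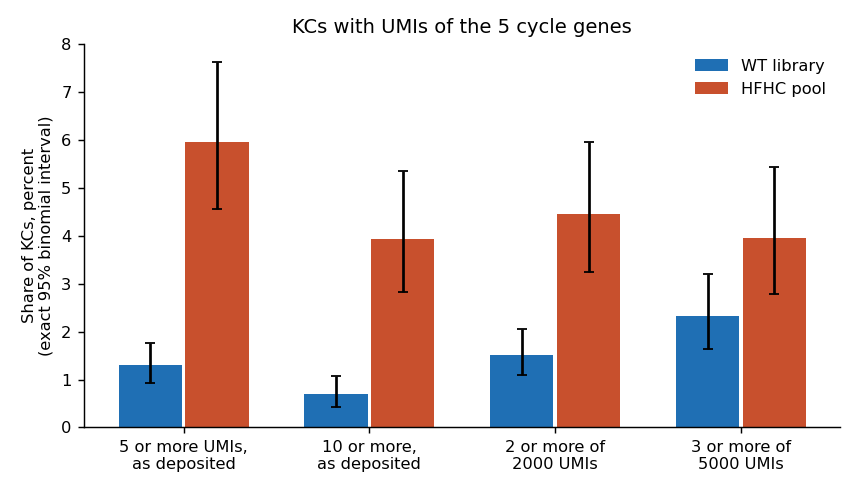
Share of KCs that were proliferating (percent) in the WT library and the HFHC pool by each of 4 measures: at least 5 cycle UMIs, at least 10, and at least 2 or 3 after thinning to 2000 or 5000 UMIs. Bars start at 0 and error bars are exact 95% binomial intervals over cells, which cover counting error only. The pool is higher by each measure, and the intervals overlap after thinning to 5000 UMIs, which kept 1588 of 3002 WT KCs and 909 of 989 pool KCs.

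Proliferating KCs of the pool were last compared directly with those of the WT library, with comparison KCs of the same libraries beside them. In members, 262 of 6362 genes were past 2-fold higher in the pool (4.12%) and 445 lower (6.99%). With a minimum of 10 cycle UMIs the counts were 329 and 616. With each library scaled by the median of ratios in place of its total, the counts were 355 and 325. With at most 4000 genes, which left 29 WT and 8 pool members, they were 1287 and 642. The split between directions thus rests on the scaling and on the cells kept. The median of all genes was -0.12 in members and -0.01 in comparison KCs. Of the 707 genes, 655 had the same sign in comparison KCs and 263 (37.2%) were past 2-fold there too. No share over all genes was set beside these counts, so they are a description only. The highest were shared with all KCs of the libraries. Egr1 and Fosb, immediate-early transcription factors, were 4.17 and 3.86 higher in members and 3.65 and 3.21 in comparison KCs. Csrp1 was 3.23 and 3.05 higher, Ctsd, a cathepsin, 3.40 and 2.84, Pld3 3.14 and 3.0, and Cxcl2, a chemokine for neutrophils, 2.85 and 3.28. In comparison KCs Ctsd stood at 182 CPM in the WT library and 1305 CPM in the pool, and Ctsb at 10838 and 9893 CPM. The part of annotation version in these differences was not tested. The heat shock genes Hspa1a and Hspa1b were 3.64 and 2.92 higher in members and 1.96 and 1.80 in comparison KCs. In WT members Hspa1a had 16 UMIs in 4 cells, Hspa1b 21 in 6, Egr1 15 in 6 and Fosb 16 in 7. Of 31 Cxcl2 UMIs in WT members, 27 lay in 1 cell. The ratios of these genes in members thus rest on few WT cells. The dissociation list as a whole had medians of 1.58 and 1.52, and lipid-associated macrophage genes 1.1 and 1.75.

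The lowest in the pool were Trbc2, Il2rb, Ptprcap, Sept1, Trac, Klf9, Gimap3 and Thy1, of which most mark T or NK cells. Trbc2, a chain of the T cell receptor, was -4.49 in members and -0.80 in comparison KCs, and 109 of its 114 UMIs in WT members lay in the 4 cells with 5 T cell UMIs. Without such cells 35 WT and 57 pool members remained, and 7 of the 8 genes no longer entered. The exception was Klf9, a glucocorticoid- and clock-driven factor, with -3.19 without these cells, -3.12 with them and -2.97 in comparison KCs. Of cell cycle genes, G2 and M phase genes were alike in level, with a median of 0.07 in members. S phase genes were lower in the pool, with a median of -0.68 and 8 of 34 past 2-fold lower, against -0.27 and 2 in comparison KCs. This median was -0.35 without cells with 5 T cell UMIs, -0.19 without cells with 5 UMIs of any of the other cell type lists but that of hepatocytes, and -0.46 with a minimum of 10 cycle UMIs. Nucleotide synthesis and DNA repair genes had medians of -0.60 and -0.72 in members and -0.16 and -0.17 in comparison KCs. Neither diet nor genotype can be read from these differences, since each library was 1 sample.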

How the data were processed

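Values were whole UMI counts per cell and gene that the authors deposited as 2 tables made with the BD Rhapsody pipeline 1.10.1 on GRCm38 and GENCODE annotation, per the file headers. These deposited counts were not normalized, and cells are those the pipeline called. The table of sample tags was not used here, nor was any column of another sample (0 such columns). Reads were deduplicated by UMI, so depth is the number of UMIs, and a floor of 3 UMIs stood in for a gene with no UMI in a group.

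Cells with at least 200 genes and at most 25% mitochondrial UMIs were kept, with no upper limit on genes. Proliferating KCs, comparison KCs and the gene lists were chosen with earlier results of these data known, and the 5 cycle genes and Clec4f and Vsig4 were used in choosing cells. CPM of a set of cells came from its summed UMIs, and each log2 ratio had 1 UMI added to both sides, for genes with a mean of at least 20 CPM. Ratios have exact conditional binomial 95% intervals and shares exact Clopper-Pearson 95% intervals. Cells were thinned without replacement to 2000 or 5000 UMIs. The B cells set beside KCs had at least 5 UMIs of B cell markers, the neutrophils at least 20 of neutrophil markers, and both at most 1 of Clec4f and Vsig4. No doublets were removed; Scrublet (scanpy 1.11.5) marked 8.27% and 2.11% of kept cells. Genes named were the rule genes, those the study names for its macrophage classes, the most abundant and most extreme of each list, the 15 highest and 15 lowest by the ratio nearer to 0 of both libraries, and the 8 highest and lowest of pool over WT. Some others were named for their role after their values were seen, and a few that the rule names are not reported here. Promoters were RefSeq's for GRCm38.p6, 250 bases before each start. Scripts ran in Python 3.11.15 with numpy 2.4.6, scipy 1.17.1 and matplotlib 3.10.9, and were tested on simulated counts.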

Additional observations from a re-analysis of the deposited data

How the results depend on the processing

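Each result is 1 library against another or sets of cells within 1 library, so there was no replicate to leave out. No paired analysis was possible because each group held 1 sample. The alternatives with T cell UMIs and the thinning of the same KCs were chosen after seeing the data.

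The share of KCs that were proliferating was 2.30% in the WT library and 10.2% in the pool with a minimum of 3 cycle UMIs, and 0.700% and 3.94% with 10. With at most 4000 genes per cell the shares were 0.981% and 2.14%, with 8 pool members left. Thinned to 2000 UMIs, the shares were 1.54% in the WT library and 4.31% in the pool where Clec4f and Vsig4 were also thinned (2 UMIs asked for). Where these were not thinned, the shares were 1.51% and 4.46%. Thinned to 5000 UMIs the shares were 2.33% and 3.96%, among the 1588 of 3002 WT KCs and 909 of 989 pool KCs that were deep enough.

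The 223 genes past 2-fold higher in both libraries became 97 at a mean of 50 CPM and 357 at 10 CPM, since fewer or more genes enter. With cells of the middle depths 217 genes were past 2-fold higher in both, 181 of them among the 223. With at most 4000 genes there were 290, of which 139 were among the 223. The 4 lower in both became 2 with cells of the middle depths, 9 with the mean of each cell's CPM, 7 with scaling by the median of ratios, 9 at a mean of 10 CPM, 18 with a minimum of 10 cycle UMIs, 9 with at most 4000 genes, 1 without Scrublet doublets and 9 without cells with 5 UMIs of another type (hepatocytes not counted). Of the 4 themselves, 0 were kept with the middle depths or with at most 4000 genes, and 1 with the mean of each cell's CPM, with 10 cycle UMIs, without Scrublet doublets or without cells of another type. Of pool over WT members, 262 higher became 129 at 50 CPM and 1287 with at most 4000 genes. The 445 lower became 710 with the middle depths, 162 at 50 CPM, 791 at 10 CPM and 642 with at most 4000 genes. The cause of these shifts, other than the number of genes or cells, was not tested.

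Genes that changed sign in the pool were Cxcl10 (-1.19 with the middle depths, -0.60 with at most 4000 genes, -0.46 without cells of another type) and, with at most 4000 genes, F830016B08Rik (0.35), Hjurp (-0.30), Serpina1b (0.088) and Serpina1c (0.74). In the WT library Gimap3 (-0.87), Ptprcap (-0.28), Sept1 (-0.56) and Trac (-0.22) did so with the middle depths.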
